A study of Mus musculus with 14 samples.

Results

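The 10 genes described here make fatty acids from acetyl-CoA or set the rate at which this is done. They were chosen by gene symbol, with earlier results of these data known, and all 10 were found among the 54532 genes of the count table. They comprise the transcription factor genes Srebf1 and Mlxipl, the supply genes Slc25a1, Acly and Acss2, the carboxylases Acaca and Acacb, the synthase Fasn, the NADPH source Me1 and the elongase Elovl6. The mice were male, 7 WT and 7 IKO, and had been fed a high fat diet (HFD) for 15 weeks before RNA was taken from the mucosa of the ileum, with 1 library per mouse. WT mice were Ncor1 flox/flox littermates without Cre. IKO mice carried the same floxed Ncor1 alleles and a Cre recombinase under the villin promoter, which is active in the intestinal epithelium. The sample labels give intestinal epithelial cells as the cell type, whereas the study's methods name the mucosa. Cells outside the reach of the villin promoter could therefore contribute RNA. Age and strain are not in the labels.

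In de novo lipogenesis, citrate leaves the mitochondrion through the citrate carrier and is split into acetyl-CoA, which is carboxylated to malonyl-CoA and joined into palmitate by FA synthase at the expense of NADPH. The enzymes are controlled by SREBP1, the product of Srebf1, which is induced by LXR and insulin, and by ChREBP, the product of Mlxipl, which responds to sugar. NCoR1 is a corepressor that nuclear receptors such as LXR bind when they have no ligand, and the enterocyte mostly re-esterifies FAs taken up from the diet rather than making them.

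The comparison of IKO with WT mice asked how loss of the corepressor from the epithelium was accompanied by changes in the transcripts of this pathway. The sequences upstream of the transcription starts were examined because SREBP1, ChREBP and LXR act through short motifs. RefSeq starts on GRCm38.p6 were found for all 10 genes, 14 starts in all, and the 250 bases before each start were searched on both strands. The windows of Srebf1 and Fasn are shown since both held TGACCGNNAGTAACCCC (capitals), the longest run of letters that a Srebf1 and a Fasn window shared with a gap of 2 free bases. This run was looked for after the windows had been read. The windows of Slc25a1 and Mlxipl are shown since they were the members' windows with an E-box, CACGTG (capitals). All are written 5′ to 3′ on the strand of the gene.
Srebf1, minus strand, chr11:60210472-60210721: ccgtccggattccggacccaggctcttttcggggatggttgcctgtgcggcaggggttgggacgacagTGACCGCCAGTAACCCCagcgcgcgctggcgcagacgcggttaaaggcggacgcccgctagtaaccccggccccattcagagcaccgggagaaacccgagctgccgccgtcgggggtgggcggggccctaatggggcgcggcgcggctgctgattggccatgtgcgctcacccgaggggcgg
Fasn, minus strand, chr11:120824548-120824797: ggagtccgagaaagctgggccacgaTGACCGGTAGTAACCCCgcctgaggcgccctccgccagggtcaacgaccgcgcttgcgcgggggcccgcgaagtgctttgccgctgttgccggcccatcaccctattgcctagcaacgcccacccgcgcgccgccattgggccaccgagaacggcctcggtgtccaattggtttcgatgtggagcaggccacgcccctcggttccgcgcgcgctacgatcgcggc
Slc25a1, minus strand, chr16:17928220-17928469: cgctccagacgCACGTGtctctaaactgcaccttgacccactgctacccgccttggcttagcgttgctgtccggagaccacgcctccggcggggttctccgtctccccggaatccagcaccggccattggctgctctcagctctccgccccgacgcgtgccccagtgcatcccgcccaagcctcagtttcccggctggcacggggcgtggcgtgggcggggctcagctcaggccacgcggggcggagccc
Mlxipl, plus strand, chr5:135089640-135089889: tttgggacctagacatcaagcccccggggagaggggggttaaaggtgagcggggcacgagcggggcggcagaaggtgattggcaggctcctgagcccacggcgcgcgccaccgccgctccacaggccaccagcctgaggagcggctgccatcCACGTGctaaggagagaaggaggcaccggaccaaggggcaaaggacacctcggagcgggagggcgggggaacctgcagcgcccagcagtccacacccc

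The letters TGACCGNNAGTAACCCC lay 182 to 166 bases before the Srebf1 start and 225 to 209 bases before the Fasn start. Among 32851 RefSeq windows of this length, 0.00913% held them, and the windows belonged to Srebf1, Fasn and Abca1. Abca1 encodes a cholesterol exporter. The Srebf1 window lies inside the gene, downstream of the other RefSeq starts of Srebf1, and the counts cover the whole gene and do not separate transcripts by their start. The E-box was found 239 to 234 bases before the Slc25a1 start and 98 to 93 bases before this Mlxipl start, and 6.02% of all windows held it. A sterol regulatory element core, TCACNCCAC, was found 136 to 128 bases before another Mlxipl start and in 1.05% of all windows. The CCAAT box bound by NF-Y was in 8 of the 14 windows (33.8% of all windows) and the Sp1 box GGGCGG in 7 (32.7% of all windows). The exact letters of the canonical LXR direct repeat were in 0 of the 14 windows and in 0.0152% of all windows. Forms of the repeat that depart from these letters were not searched for. The search therefore cannot show whether the windows lack an LXR element. Whether the letters shared by Srebf1, Fasn and Abca1 are such a form was not tested. All the matches given here describe letters only. Of the 4 genes shown, Srebf1 and Slc25a1 passed the test described next, and Fasn and Mlxipl did not.

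Of the 10 genes, 6 were higher in IKO mice and 0 were lower at an adjusted p under 0.05, and 4 did not pass. The quasi-likelihood test of edgeR was used, with p-values adjusted by Benjamini and Hochberg's method over all 13846 genes tested. Of these, 8.67% passed, 4.38% as higher and 4.28% as lower in IKO mice. The 10 genes were chosen with earlier results of these data known, so these shares are a background and do not test the set. The genes that rose were Srebf1, Slc25a1, Acss2, Acaca, Acacb and Me1, by 1.63-fold to 4.48-fold. Mlxipl, Acly, Fasn and Elovl6 did not pass. At an unadjusted p under 0.05 there were also 0 lower, as with DESeq2 and limma-voom. All 10 genes passed the filter on low counts. Their median log2 fold change was 0.82 against -0.09 for all genes tested, and 9 of 10 values were above 0. In 3 of the 10, Acaca, Acacb and Me1, every IKO mouse was above every WT mouse, as in 1.83% of all genes tested, and in 0 of the 10 was every IKO mouse below every WT mouse (1.26% of all genes). The lowest count behind any value was 26 reads, for Acacb in WT 3.

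**Figure D1:**
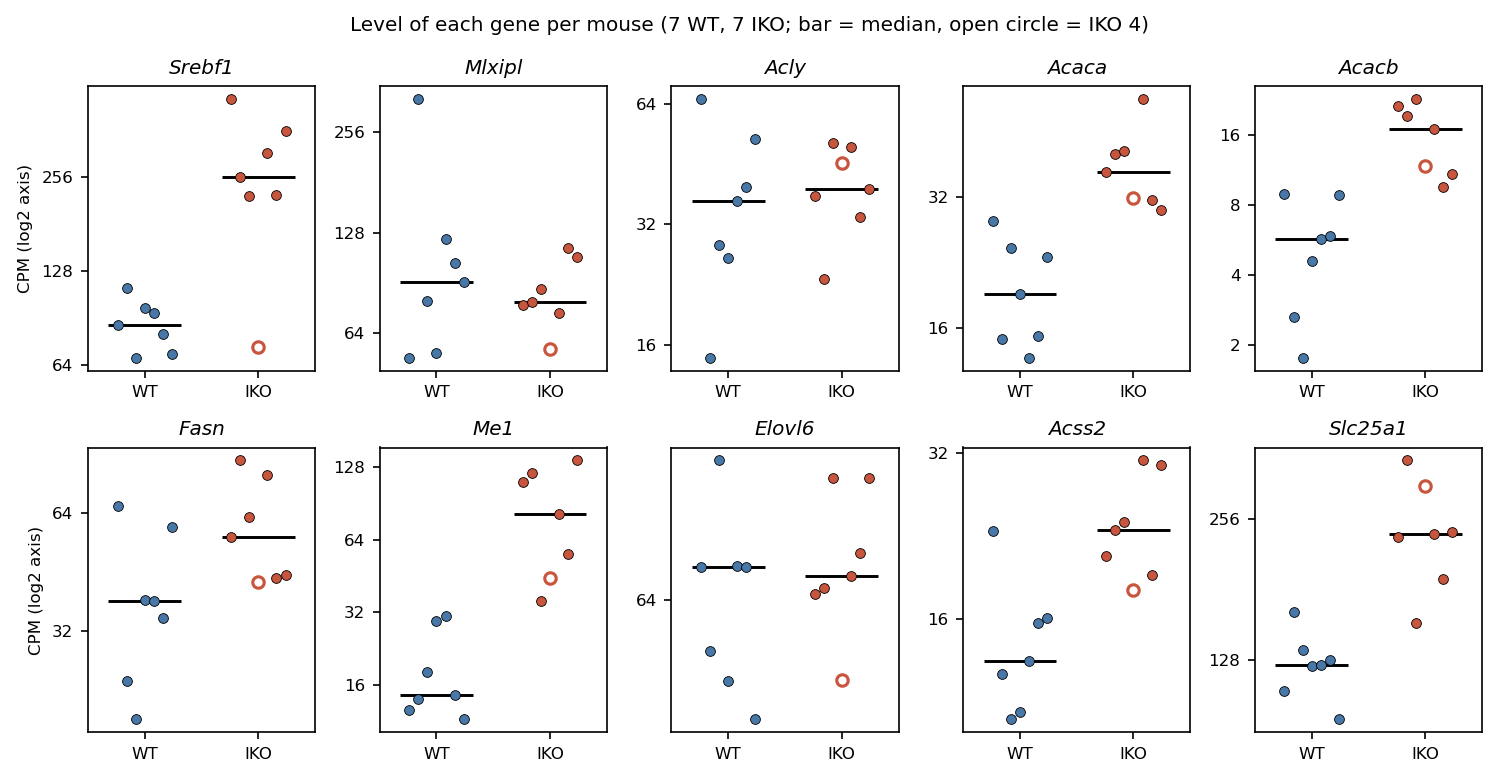
Level of each of the 10 genes in every mouse, in CPM (read counts scaled to a common library size) on a log2 axis with its own range for each gene. Points are mice, bars are medians of 7 WT and 7 IKO mice, and the open circle is IKO 4, which lies at 73.2 CPM in the Srebf1 plot, below the median of the WT mice.

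**Figure D2:**
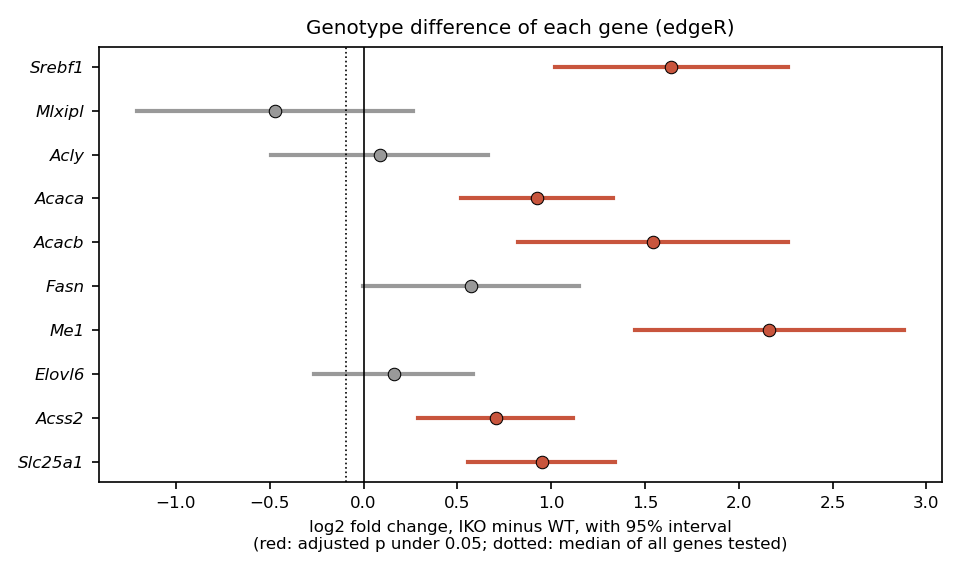
Log2 fold change of each gene, IKO minus WT, with its 95% interval from edgeR. The 6 genes in red lie between 0.71 for Acss2 and 2.16 for Me1, and the 4 grey genes have intervals that reach 0.

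Between 14749669 and 21557468 reads per mouse were counted on genes. Ncor1 itself fell by 1.41 on the log2 scale (standard error 0.18, edgeR adjusted p = 0.00051), with every IKO mouse below every WT mouse. IKO 4 and WT 3 stood apart by their share of mitochondrially encoded reads, which was 50.3% and 23.9%, against 3.49% to 10.3% in the other libraries. WT 4 had the highest sum of smooth muscle markers, 8168 CPM. Without these 3 libraries, 5 of the 10 genes were higher and 0 were lower, and Acss2 no longer passed (log2 fold change 0.61, edgeR adjusted p = 0.106). In RNA from whole mucosa, fewer cells of a type and less RNA per cell cannot be told apart.

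Among the regulators, Srebf1 rose and Mlxipl did not pass the test. Srebf1 lies on chromosome 11 from 60199089 to 60222581 (mm10), 2.09 Mb from Ncor1. Levels are given as CPM, which are read counts scaled to a common library size with TMM factors. That of Srebf1 was between 67.6 and 113 CPM with a median of 86.4 in WT mice, and between 73.2 and 455 CPM with a median of 257 in IKO mice. The groups overlapped through IKO 4 alone. The other 6 IKO mice started at 222 CPM, above the highest WT mouse. Srebf1 rose 3.12-fold (95% interval 2.03 to 4.80), with a log2 fold change of 1.64 (standard error 0.29, edgeR adjusted p = 0.0056). The exact two-sided permutation test on the log2 levels gave p = 0.0035. Without IKO 4 the log2 fold change was 1.81, and without the 3 libraries above it was 1.78.

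Mlxipl was measured at 54.0 to 322 CPM (median 91.3) in WT mice and at 57.6 to 115 CPM (median 79.4) in IKO mice. The range of the WT mice was set by WT 2 at 322 CPM, and the next WT mouse was at 123 CPM, so the groups overlapped throughout. The log2 fold change of Mlxipl was -0.47 (95% interval -1.21 to 0.27, edgeR adjusted p = 0.37). Without WT 2 it was 0.02. Thus Srebf1 and Mlxipl differed in outcome, although the difference between their fold changes was not tested.

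Supply of cytosolic acetyl-CoA is shared by the citrate carrier Slc25a1, the ATP citrate lyase Acly and the acetyl-CoA synthetase Acss2, which uses acetate. Slc25a1 and Acss2 rose, and Acly did not pass. Slc25a1 was measured at 95.5 to 162 CPM (median 125) in WT mice and at 154 to 341 CPM (median 238) in IKO mice. Only IKO 3 at 154 CPM and WT 2 at 162 CPM crossed. The rise of Slc25a1 was 1.93-fold (95% interval 1.47 to 2.54), with a log2 fold change of 0.95 (standard error 0.19, edgeR adjusted p = 0.0086).

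Acly, which consumes the citrate that Slc25a1 exports, lay between 14.8 and 65.9 CPM (median 36.5) in WT mice and between 23.3 and 51.0 CPM (median 39.3) in IKO mice. All IKO mice were inside the WT range. The log2 fold change of Acly was 0.09 (95% interval -0.49 to 0.66, edgeR adjusted p = 0.855). Its sign changed in 5 of 26 alternative analyses, all of them without a call.

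Acss2 was measured at 10.5 to 23.1 CPM (median 13.4) in WT mice and at 18.1 to 31.1 CPM (median 23.2) in IKO mice. WT 1 at 23.1 CPM lay among the IKO mice, and the other WT mice were at or below 16.1 CPM. Acss2 rose 1.63-fold (95% interval 1.22 to 2.17), with a log2 fold change of 0.71 (standard error 0.20, edgeR adjusted p = 0.0393). This call was lost in 15 of 26 alternative analyses, among them the omission of any of WT 2, WT 3, WT 4, WT 5, WT 7, IKO 1, IKO 2, IKO 3, IKO 5 and IKO 7 alone (0.63 to 0.74, edgeR adjusted p from 0.0518 to 0.0895). With library totals only, the log2 fold change of Acss2 was 0.28. The gene shares 395 exon bases (3.89% of its exon bases) with Gss on the opposite strand. The library kit does not mark strand, so reads from that stretch could not be assigned to either gene by strand. Gss encodes glutathione synthetase, and its log2 fold change was 0.46 (edgeR adjusted p = 0.175).

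The acetyl-CoA carboxylases make malonyl-CoA, in the cytosol for Acaca and at the outer mitochondrial membrane for Acacb, whose product restrains the import of FAs into mitochondria. Both rose. Acaca was measured at 13.7 to 28.1 CPM (median 19.2) in WT mice and at 29.8 to 53.6 CPM (median 36.6) in IKO mice. The groups did not overlap, and the gap between WT 1 and IKO 7 was small. Acaca rose 1.90-fold (95% interval 1.43 to 2.51), with a log2 fold change of 0.92 (standard error 0.19, edgeR adjusted p = 0.0112), and did not pass with library totals only (log2 fold change 0.50, edgeR adjusted p = 0.154).

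Acacb, the less abundant of these carboxylases, was measured at 1.76 to 8.92 CPM (median 5.69) in WT mice and at 9.50 to 22.8 CPM (median 17.0) in IKO mice. Again the groups did not overlap, with WT 1 and WT 7 highest among the WT mice and IKO 6 lowest among the IKO mice. Acacb rose 2.92-fold (95% interval 1.77 to 4.81), with a log2 fold change of 1.55 (standard error 0.34, edgeR adjusted p = 0.0148). The call for Acacb was lost with library totals only (log2 fold change 1.08, edgeR adjusted p = 0.0648). On the log2(FPKM + 1) scale, which understates changes of low values, the difference was 0.77 with the call kept. The exact two-sided permutation test gave p = 0.000583 for Acaca, Acacb and Me1 alike, the smallest value that 7 against 7 mice allow.

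FA synthase, encoded by Fasn, joins malonyl-CoA units into palmitate. It was measured at 19.1 to 66.9 CPM (median 38.3) in WT mice and at 42.7 to 87.4 CPM (median 55.6) in IKO mice. Every IKO mouse was above the WT median, but WT 1 at 66.9 CPM and WT 7 at 59.0 CPM lay among the IKO mice. The log2 fold change of Fasn was 0.57 (standard error 0.27, 95% interval -0.002 to 1.15), which did not pass (edgeR adjusted p = 0.166, exact permutation p = 0.0501 before adjustment). On the linear scale this was 1.49-fold, with an interval from 0.998 to 2.21.

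Malic enzyme, encoded by Me1, turns malate into pyruvate in the cytosol and yields NADPH, and of the 10 genes it had the largest log2 fold change. Me1 was measured at 11.5 to 30.8 CPM (median 14.5) in WT mice and at 35.6 to 136 CPM (median 81.8) in IKO mice. The groups did not overlap. The IKO mice were spread widely, from IKO 3 at 35.6 and IKO 4 at 44.5 CPM to IKO 7 at 136 CPM. Me1 rose 4.48-fold (95% interval 2.72 to 7.36), with a log2 fold change of 2.16 (standard error 0.34, edgeR adjusted p = 0.00257). Among all genes tested, 1.56% had a larger absolute log2 fold change.

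Elovl6 lengthens the palmitate made by FA synthase. It was measured at 43.3 to 101 CPM (median 71.2) in WT mice and at 49.3 to 95.4 CPM (median 69.1) in IKO mice. The IKO mice all lay inside the WT range. The log2 fold change of Elovl6 was 0.16 (95% interval -0.26 to 0.58, edgeR adjusted p = 0.611).

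**Figure D3:**
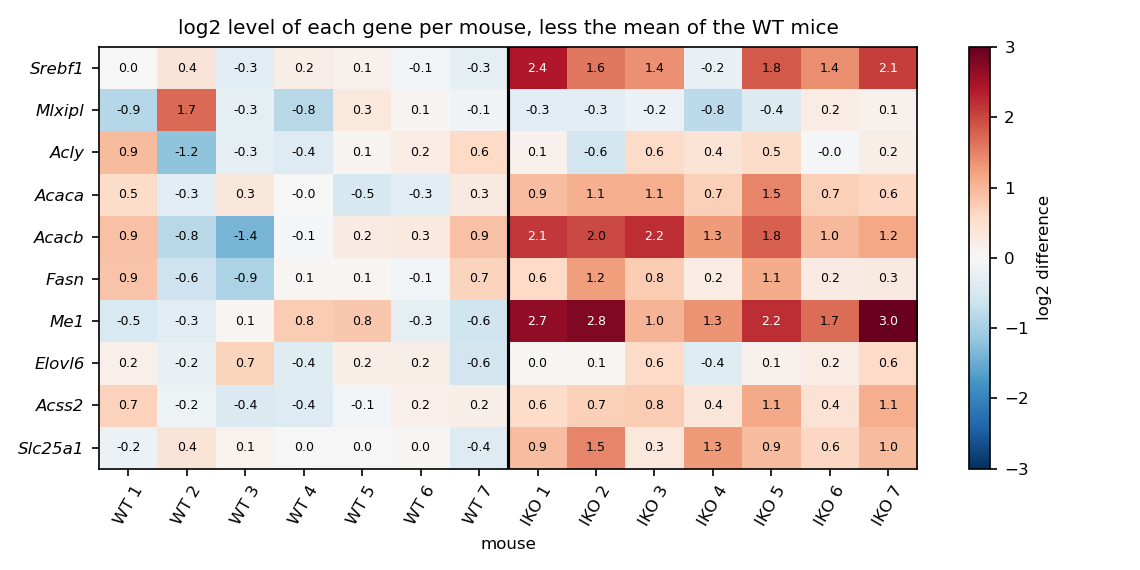
Log2 level (log2 CPM) of each of the 10 genes (rows) in each of the 14 mice (columns), less the mean of the WT mice for that gene, with the value printed in each cell. Me1 in IKO mice runs from 1.03 in IKO 3 to 2.96 in IKO 7, Srebf1 in IKO 4 is at -0.23, and Mlxipl in WT 2 is at 1.71.

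Per kilobase of gene length (RPKM), Slc25a1 had the highest level of the 10 genes in both genotypes, with a mean of 58.0 ± 9.49 in WT and 112 ± 29.1 in IKO mice (± SD over 7 mice, as in all values of this kind that follow). In WT mice it was followed by Mlxipl at 21.4 ± 16.8, Srebf1 at 15.4 ± 2.84, Elovl6 at 10.3 ± 3.01, Acly at 7.14 ± 3.23, Me1 at 4.86 ± 2.09 and Fasn at 3.66 ± 1.59 RPKM. Acss2 at 1.44 ± 0.42, Acaca at 1.17 ± 0.32 and Acacb at 0.57 ± 0.29 RPKM came last. In IKO mice, Srebf1 at 48.1 ± 21.4 and Me1 at 21.7 ± 10.3 RPKM stood ahead of Mlxipl at 15.5 ± 3.63, Elovl6 at 11.5 ± 2.60, Acly at 7.59 ± 1.86 and Fasn at 5.44 ± 1.67 RPKM. The order ended with Acss2 at 2.35 ± 0.51, Acaca at 2.21 ± 0.48 and Acacb at 1.67 ± 0.56 RPKM. The mean ± SD ranges of neighbours in either order overlapped, except that Slc25a1 stood clear of the gene after it and Fasn of Acss2 after it.

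Ratios of counts within a library, which do not depend on how libraries are scaled, were formed for 6 pairs of a member and a related gene or other member. They were compared by exact two-sided permutation tests with adjustment over the 6. The log2 ratio of Srebf1 to Srebf2, whose product mainly controls cholesterol synthesis, had a median of -0.53 in WT and 0.29 in IKO mice, and the means differed by 1.09 (exact permutation adjusted p = 0.014). For Me1 to its mitochondrial counterpart Me2, the difference was 1.63 (exact permutation adjusted p = 0.014). For Acss2 to the mitochondrial Acss1 it was 0.67 (exact permutation adjusted p = 0.0455), but 0.63 with an adjusted p of 0.0823 in the same exact permutation test without IKO 4, WT 3 and WT 4. Differences that did not pass were -0.79 for Mlxipl to its partner Mlx (exact permutation adjusted p = 0.0678), -0.72 for Acaca to Acacb (exact permutation adjusted p = 0.0678) and -0.14 for Elovl6 to Elovl5 (exact permutation adjusted p = 0.659).

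Other genes of the pathway were described by 10 lists of 81 genes, which were written by role with earlier results of these data known. Of the 73 that were tested, 14 were higher and 1 was lower in IKO mice at an edgeR adjusted p under 0.05. Over all genes tested, 4.38% were higher and 4.28% lower, which is a background and does not test the lists. The median log2 fold change of the 73 genes was 0.39. Of 7 genes that supply NADPH in the cytosol, 3 were higher and 0 lower. G6pdx and Pgd of the pentose phosphate pathway both rose 1.80-fold (edgeR adjusted p = 0.00804 and 0.00875), and the isocitrate dehydrogenase Idh1 rose 1.86-fold (edgeR adjusted p = 0.0193). In these 3 genes every IKO mouse was above every WT mouse, as in Me1. Without IKO 4, WT 3 and WT 4, 2 of the 7 were higher and Idh1 did not pass (edgeR adjusted p = 0.0793). With library totals only, Pgd (log2 fold change 0.46, edgeR adjusted p = 0.0897) and Idh1 (log2 fold change 0.54, edgeR adjusted p = 0.0739) did not pass. Of the mitochondrial malic enzymes Me2 and Me3, 0 passed in edgeR, DESeq2 or limma-voom and 0 had an unadjusted p under 0.05, and the log2 fold change of Me2 was 0.45 (edgeR adjusted p = 0.219).

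Of 10 tested genes that supply citrate and acetyl-CoA, 4 were higher and 0 lower, with a median log2 fold change of 0.66. Pcx, which makes oxaloacetate from pyruvate, rose 1.94-fold (edgeR adjusted p = 0.0115). The cytosolic malate dehydrogenase Mdh1 rose 1.87-fold (edgeR adjusted p = 0.0239). Slc25a11, a carrier that exchanges malate for oxoglutarate, rose 1.64-fold (edgeR adjusted p = 0.0175). In Pcx and Mdh1 the groups did not overlap. Without IKO 4, WT 3 and WT 4, 1 of the 10 genes was higher, which was Pcx. The edgeR adjusted p was then 0.104 for Mdh1 and 0.0924 for Slc25a11. Slc25a11 did not pass with library totals only either (log2 fold change 0.31, edgeR adjusted p = 0.15). Mdh1 also missed the threshold without WT 4 (edgeR adjusted p = 0.0501), IKO 1 (edgeR adjusted p = 0.0511) or IKO 5 (edgeR adjusted p = 0.0513) alone.

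Of 6 genes for SREBP processing, 2 were higher and 0 lower. Insig1 and Insig2, which hold the SREBP precursor in the endoplasmic reticulum, rose 2.97-fold (edgeR adjusted p = 0.0185) and 2.21-fold (edgeR adjusted p = 0.00552). The other 4 were Scap, Srebf2 and the proteases Mbtps1 and Mbtps2, with log2 fold changes from -0.35 to 0.42. Of 9 tested transcriptional partners, 0 passed in edgeR, 1 was higher with DESeq2 and 1 lower with limma-voom, and at an unadjusted p under 0.05 there were 3 higher and 1 lower. Rxra, the partner of LXR, had a log2 fold change of 0.37 (edgeR adjusted p = 0.13), and Mlx, the partner of ChREBP, had 0.53 (edgeR adjusted p = 0.065). The gene lower at an unadjusted p was the LXR gene Nr1h3, with a log2 fold change of -0.65 (edgeR adjusted p = 0.0751). The other LXR gene, Nr1h2, had -0.05 (edgeR adjusted p = 0.863). Of 9 genes that are ChREBP targets or handle sugar, 2 were higher and 0 lower in edgeR, although 1 was lower with limma-voom and 2, Txnip and Arrdc4, were lower at an unadjusted p under 0.05. The higher genes were G6pc, the glucose phosphatase of gluconeogenesis, at 4.50-fold (edgeR adjusted p = 0.0182) and Gpd1, which makes glycerol phosphate, at 1.92-fold (edgeR adjusted p = 0.0156). Txnip and Arrdc4, which are known to respond to ChREBP, had log2 fold changes of -0.42 and -0.37, and Pklr, the pyruvate kinase gene of liver and gut, had 0.50, and these 3 did not pass. Without IKO 4, WT 3 and WT 4, 0 of these 9 genes passed in edgeR (edgeR adjusted p = 0.0637 for G6pc and 0.0738 for Gpd1).

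Control of the carboxylases showed calls in both directions. Of 9 genes, Mid1ip1, whose product promotes polymerization of acetyl-CoA carboxylase, rose 1.90-fold (edgeR adjusted p = 0.0248), a call lost without IKO 1 (edgeR adjusted p = 0.0573) or IKO 5 (edgeR adjusted p = 0.0542), and with library totals only (log2 fold change 0.49, edgeR adjusted p = 0.22). Prkag2, a regulatory subunit of the AMP-activated kinase that inhibits the carboxylases, fell by 0.83 on the log2 scale (edgeR adjusted p = 0.0066), with every IKO mouse below every WT mouse. The other 7 did not pass in edgeR. At an unadjusted p under 0.05, 2 of the 9 genes were higher and 3 lower. DESeq2 called 1 higher and 1 lower, and limma-voom 2 higher and 2 lower. The kinase subunit genes Prkaa1 and Prkab2 had log2 fold changes of -0.44 (edgeR adjusted p = 0.118) and -1.22 (edgeR adjusted p = 0.115). Mlycd had 0.55 (edgeR adjusted p = 0.0846). Of 8 tested genes for chain elongation other than Elovl6, 0 passed in edgeR, 0 with DESeq2 and 1 with limma-voom, 1 had an unadjusted p under 0.05, and the median log2 fold change was 0.03. Elovl1, which acts on very long chains, had the smallest p, at a log2 fold change of 0.55 (edgeR adjusted p = 0.117), and passed without IKO 4 (edgeR adjusted p = 0.0193). Of 5 tested desaturases, Scd1 rose 42.1-fold (95% interval 12.1 to 146, edgeR adjusted p = 0.00268) and Scd2 rose 11.1-fold (95% interval 4.38 to 28.2, edgeR adjusted p = 0.00621), and the remaining 3 did not pass. The log2 fold change of Scd1, 5.40 in edgeR, was 6.66 with limma-voom and 6.11 without IKO 4, WT 3 and WT 4. Of 8 tested genes of the separate mitochondrial route of FA synthesis, 0 passed in edgeR, 1 with DESeq2 and 0 with limma-voom, 2 had an unadjusted p under 0.05, and the median was 0.29. Ndufab1, its acyl carrier protein, had a log2 fold change of 0.62 (edgeR adjusted p = 0.0601), and passed without IKO 3 (edgeR adjusted p = 0.044).

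**Figure D4:**
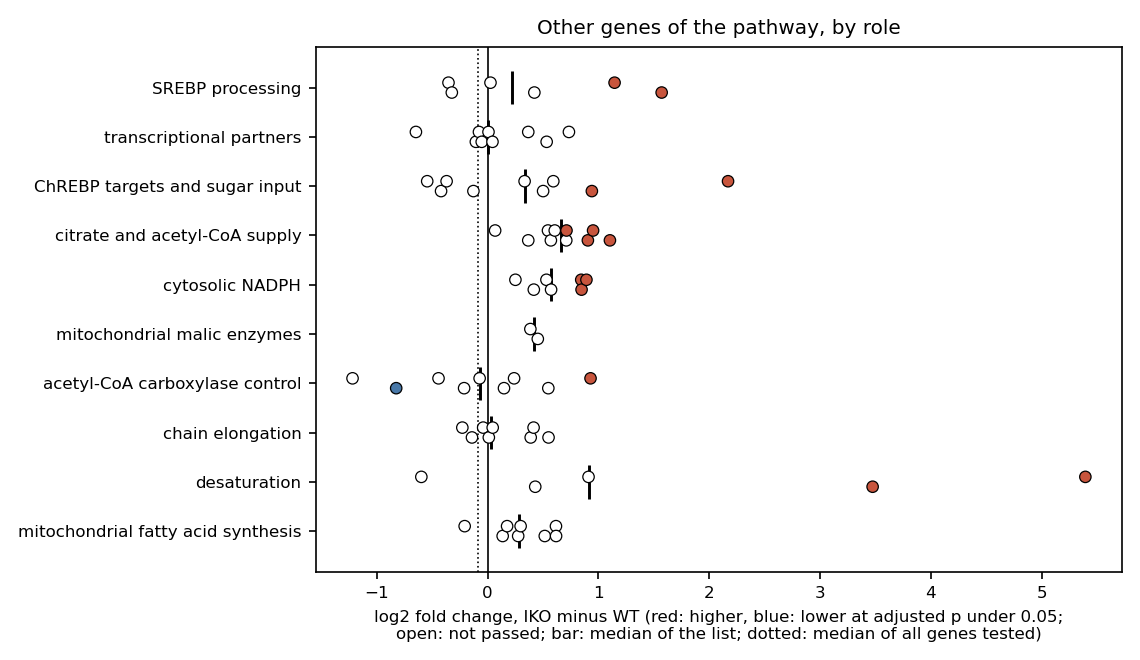
Log2 fold change, IKO minus WT, of the 73 tested genes of the 10 pathway lists, 1 row per list. Points are genes (red, higher; blue, lower; open, not passed), short bars are list medians, which run from -0.07 for carboxylase control to 0.91 for desaturation, and the dotted line is the median of all genes tested at -0.09.

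The 10 genes did not vary as 1 block between mice of the same genotype. After the genotype mean was removed from the log2 levels of the 14 mice, the 45 pairs of genes had Pearson r from -0.62 to 0.90 with a median of 0.07, and 24 were above 0. Without IKO 4, WT 3 and WT 4, the range was -0.87 (Mlxipl and Acacb) to 0.86 (Acaca and Fasn) and the median -0.08. These values describe libraries that share depth and composition. Over all 14 mice, Acacb and Fasn had the highest value (r = 0.90, and 0.84 without the 3 libraries), whereas without the 3 libraries Acaca and Fasn did (r = 0.52 over 14 mice and 0.86 without them). Over 14 mice Acacb and Fasn were followed by Fasn and Acss2 (r = 0.66) and Acly and Acacb (r = 0.61). Srebf1 was most like Me1 among the 10 genes (r = 0.57, and 0.61 without the 3 libraries), and its r with Fasn was 0.15 but -0.36 without them. Slc25a1 and Acly varied in opposite directions (r = -0.62, and -0.72 without the 3 libraries), as did Mlxipl and Acly (r = -0.60, and -0.84 without them). On the log2 scale, WT 2 was the highest WT mouse for Mlxipl (1.71 above the WT mean) and Slc25a1 (0.38), and the lowest for Acly (-1.20). WT 2 was kept in both sets of mice. The r without it was not computed, so how far these values rest on that mouse is not known. WT 1 and WT 7, which stood highest among the WT mice for Fasn, Acacb and Acly, also had the highest TMM scaling factors of the 14 libraries, 1.32 and 1.53, and the part of scaling in these values was not tested.

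**Figure D5:**
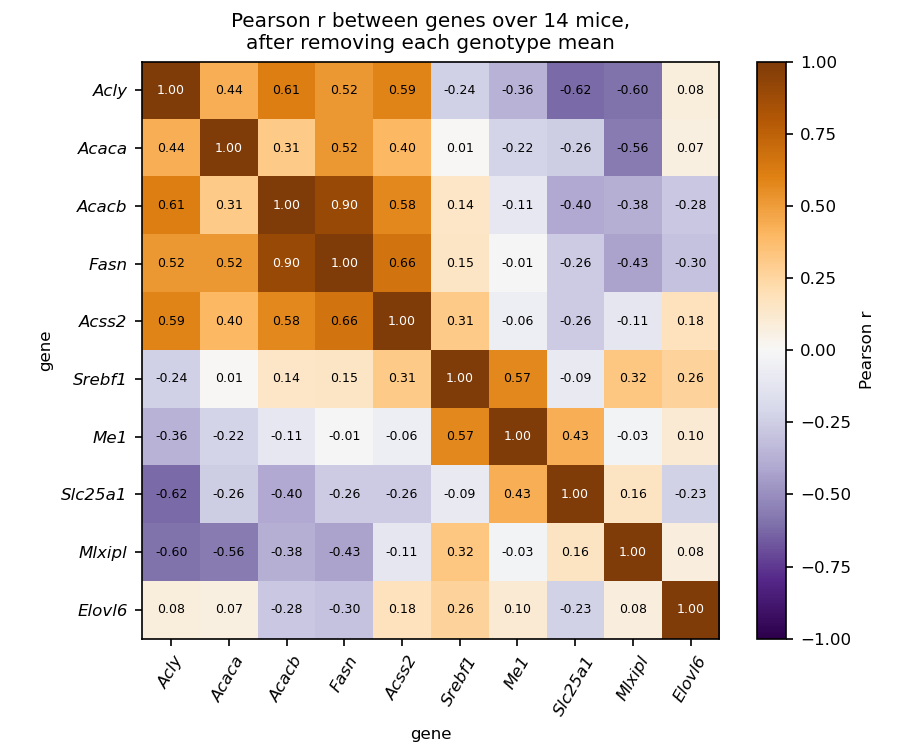
Pearson r between the 10 genes over 14 mice, on log2 levels less the mean of each genotype. Acly, Acaca, Acacb, Fasn and Acss2 form the block of positive values at the upper left, with 0.90 for Acacb and Fasn, and Slc25a1 and Mlxipl are negative towards that block.

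Among 8214 well-counted genes, those most like Srebf1 in the same measure were Creb3 (r = 0.94), Sec11a (0.93), Prkcsh (0.93), Bcap31 (0.93) and Derl2 (0.93). Without IKO 4, WT 3 and WT 4, these values were between 0.67 and 0.86. The genes most like Fasn were Ergic1 (r = 0.94), its fellow member Acacb (0.90), Elac2 (0.87), Urm1 (0.87) and Hsd11b2 (0.87), and without the 3 libraries they were between 0.84 and 0.94.

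The cell type labelled was checked against markers. The summed level of 8 enterocyte markers was 6424 to 21420 CPM (median 14100) in WT and 8444 to 23850 CPM (median 19560) in IKO mice, and 0 of the 8 genes passed in edgeR, DESeq2 or limma-voom or had an unadjusted p under 0.05. The 4 crypt stem cell markers summed to 57.5 to 178 CPM (median 120) in WT and 33.1 to 107 CPM (median 52.0) in IKO mice, with 0 of 4 passing in edgeR or DESeq2 and 1 lower with limma-voom, and with 3 lower at an unadjusted p under 0.05. Adipocytes, which are rich in several of the 10 transcripts, were sought with 7 markers that summed to 89.1 to 484 CPM in WT and 226 to 430 CPM in IKO mice, mostly through Cidec and Lipe, with 0 of the 3 tested genes passing in edgeR or DESeq2, 1 higher with limma-voom, and 0 at an unadjusted p under 0.05. The adipocyte genes Adipoq and Plin1 did not exceed 5.25 CPM in any mouse. Fabp4, however, reached 53.7 CPM in WT and 30.4 CPM in IKO mice. The mean of Adipoq was 0.57 CPM in WT and 1.67 CPM in IKO mice, and that of Retn 0.26 and 1.05 CPM. Plin1, Cidec and Lipe were also higher on average in IKO mice, whereas Fabp4 and Lep were lower. In the remaining lists edgeR called Avil, a tuft cell gene, lower (log2 fold change -1.17, edgeR adjusted p = 0.0413) and Cela1, an elastase gene of the pancreatic list, higher (log2 fold change 1.19, edgeR adjusted p = 0.00438). The median log2 fold change was -2.003 for 5 fibroblast markers, which summed to 6.26 to 338 CPM in WT and 8.13 to 42.2 CPM in IKO mice, with 4 of 5 lower at an unadjusted p under 0.05, 1 with DESeq2 and 0 in edgeR. For 5 smooth muscle markers it was -3.08, with sums of 3.73 to 8168 CPM in WT and 3.26 to 606 CPM in IKO mice, and 0 of 5 lower at an unadjusted p under 0.05. For 5 B and plasma cell markers it was -1.63, with sums of 106 to 690 CPM in WT and 87.1 to 425 CPM in IKO mice, and 2 of 5 lower at an unadjusted p under 0.05 but 0 in edgeR. The lists for ileal enterocytes, cycling, goblet, Paneth, enteroendocrine, tuft, T, macrophage and endothelial cells had medians from -0.68 (tuft) to 0.24 (Paneth). Of these, DESeq2 called 1 ileal enterocyte gene and 1 tuft gene lower and limma-voom 1 cycling gene lower. At an unadjusted p under 0.05, 1 ileal enterocyte, 1 cycling, 1 enteroendocrine, 2 tuft and 1 endothelial gene were lower. The goblet, Paneth, T and macrophage lists had 0, and 0 genes of these lists were higher. The 3 ileal enterocyte markers summed to 245 to 7951 CPM (median 3224) in WT and 339 to 6250 CPM (median 2643) in IKO mice. The libraries thus differed widely in these markers within both genotypes. Among IKO mice, Me1 was highest in IKO 7, IKO 2 and IKO 1, whose sums were 1097, 370 and 339 CPM. Among WT mice it was highest in WT 5 and WT 4, at 396 and 7951 CPM. The part of shifts in these cell types, or of ileal marker levels, in the results above was not tested.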

How the data were processed

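Total RNA of 14 mice, 7 of each genotype, was sequenced. Per the labels and the study's methods, libraries were made with a NEBNext Ultra kit, which does not mark strand, aligned to mm10 with HISAT2 2.0.5 and counted with featureCounts 1.5.0-p3. The deposited counts are whole reads per gene without normalization. The FPKM that the authors deposited equal these counts divided by gene length and by a DESeq2 size factor, as checked on the values, and were used in alternatives only. Columns named KO were read as IKO, as in the sample titles. No 2 libraries of a group agreed within sampling noise, and whether the mice came from separate litters is not stated, so p-values measure the spread between these mice.

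Genotypes were compared by the quasi-likelihood functions glmQLFit and glmQLFTest of edgeR 4.0.16 (R 4.3.3), after filterByExpr and TMM scaling and without covariates. P-values of the 13846 genes kept were adjusted by the Benjamini-Hochberg method. Adjusted p-values named edgeR are from this test. TMM factors enter CPM and RPKM. A prior count of 2 was added for log2 levels. Ratios add 0.5 to each count. Intervals are at 95%. DESeq2 1.42.0, limma 3.58.1 on voom weights or on log2 FPKM (pseudocounts 1 and 0.1, above 0.5 in at least 7 libraries), RLE or no scaling, other filters, removal of mitochondrially encoded genes, a block for the sample number and omission of libraries were alternatives. The scripts were tested on simulated counts.

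The members and lists were chosen with earlier results of these data known. All members were named. From each pathway list the text takes up to 4 genes with the largest absolute log2 fold change among those that passed, otherwise the gene with the most counts and that with the smallest p, and for Srebf1 and Fasn the 5 most alike genes with a mean log2 CPM of at least 3. Further list members were named after their values were seen, and the result of a list member that the rule names is not reported here. Promoters came from RefSeq on GRCm38.p6, the assembly behind mm10. Depth ranged from 14749669 to 21557468 counts per library. Sample numbers were not treated as pairs in the main analysis.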

Additional observations from a re-analysis of the deposited data

Results flagged for a closer look

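On the log2 scale (log2 CPM), the level of Srebf1 in IKO 4 stood apart from the other IKO mice. The gap to the nearest of them was 0.607 of the log2 range of the group, above Dixon's 95% critical value for 7 mice. The check was made on log2 levels only. IKO 4 was measured at 73.2 CPM and the next IKO mouse at 222 CPM. It was the only flag among 20 groups, 10 genes in 2 genotypes, and chance flags about 1 in 20 groups. IKO 4 also had the largest mitochondrial share (50.3%) and the smallest TMM factor (0.58) of all libraries, and their part in the Srebf1 value was not tested.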

How the results depend on the processing

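Of 10 genes, 6 were higher in the main analysis, as with DESeq2, limma-voom, RLE scaling, mitochondrially encoded genes removed, at least 10 counts in every library and filtered FPKM. The number was 5 without a filter (counts or FPKM) and without IKO 4, WT 3 and WT 4, 5 to 6 when each mouse was left out, and 3 (Srebf1, Me1 and Slc25a1) with library totals only, where the median log2 fold change of all genes was -0.48. TMM factors were 0.932 to 1.53 in WT and 0.58 to 0.969 in IKO libraries, and only WT 2 lay inside the IKO range. TMM scaling therefore raised levels in IKO relative to WT mice. Which scaling suits these libraries was not tested. In every alternative 0 genes were lower. Calls for Srebf1, Me1 and Slc25a1 held in all 26 alternatives (log2 fold changes 1.31 to 1.81, 1.82 to 2.44 and 0.56 to 1.02), Acaca lost its call in 1, Acacb in 2 and Acss2 in 15. The other 4 of the 10 genes gained a call in 0 alternatives.

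Genes called over all those tested numbered 1200 in the main analysis, 1828 with DESeq2, 1889 with limma-voom, 508 without a filter, 614 for FPKM without a filter, 433 without IKO 4, WT 3 and WT 4, and 515 (without IKO 5) to 1371 (without WT 2) when each mouse was left out. With library totals only there were 3325, of which 5.92% were higher, against 50.6% in the main analysis. The share higher was 68.1% without a filter, 68.3% to 73.9% with FPKM, 62.4% with the block, 63.7% without the 3 libraries, 63.5% without IKO 4, and 63.9%, 62.8% and 65% without IKO 1, IKO 2 and IKO 5. Further omissions that moved the count by over 1.5 times were those of WT 4 (746), WT 7 (600), IKO 1 (526), IKO 2 (728) and IKO 7 (789).

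Signs changed for Acly (-0.029 with limma-voom, -0.401 with library totals, -0.098 without the 3 libraries, -0.051 without WT 2, -0.005 without IKO 3, and -0.051 to 0.258 over all omissions of 1 mouse), Mlxipl (0.018 without WT 2, -0.601 to 0.018 over all omissions of 1 mouse), and, with library totals, Elovl6 (-0.18) and Rxra (-0.024). The ratio of Acss2 to Acss1 lost its call without the 3 libraries (0.63). Same-numbered mice deviated together (r above 0.1) in 1 of 7 pairs, which gave no sign of pairing by number. These r cover all genes and share the effects of library composition, so they cannot show whether mice were matched by litter or batch. With the replicate number as a block, 4 of the 10 genes (Srebf1, Acaca, Me1 and Slc25a1) and 362 genes in all were called, and 1 of 7 mice correlated best with its own number. Under the block Acacb (adjusted p = 0.0589), Acss2 (0.077), Mid1ip1 (0.0687), Idh1 (0.0616), Mdh1 (0.0928), Slc25a11 (0.0742), G6pc (0.0687) and Gpd1 (0.0632) did not pass in edgeR. The cause of these changes was not tested.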

Other observations

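Of the 10 genes, 4 lie on chromosome 11 with Ncor1, as do 8.17% of all genes tested: Srebf1 at a distance of 2.09 Mb, Acaca at 21.67 Mb, Acly at 38.02 Mb and Fasn at 58.35 Mb. Within 5 Mb of Ncor1, 105 genes were tested, of which 9 were higher and 9 lower (17.1% called, against 8.67% of all genes), with a median log2 fold change of 0.00. Both genotypes carry the floxed allele.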
